A study of Mus musculus with 6 samples.

Results

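NRF2, the transcription factor encoded by Nfe2l2, its inhibitor KEAP1, encoded by Keap1, and 8 of its established direct targets (Nqo1, Osgin1, Hmox1, Gclc, Gclm, Srxn1, Txnrd1 and Slc7a11) were examined in mouse melanoma cells carrying a guide RNA against Ndufs4. These 10 genes were taken by symbol from the 22535 gene rows of the deposited table, and each symbol occurred in it. They were chosen by their place in the pathway and by their CPM values in these same sgControl and sgNdufs4 libraries, above all the low level of Nqo1, so the differences given for them between the groups describe these libraries and carry no test. In unstressed cells KEAP1 holds NRF2 and presents it to a cullin 3 ubiquitin ligase for degradation, while electrophiles and oxidants act on cysteines of KEAP1 and let NRF2 accumulate. NRF2 then pairs with small MAF proteins on antioxidant response elements and raises genes for quinone reduction, glutathione and thioredoxin chemistry, haem breakdown and NADPH supply. NRF2 is controlled largely through its protein, which these data do not measure.

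The cells were B16-BL6, a line derived from the B16 melanoma of mice, grown in standard medium that contained serum and pyruvate. One group carried a control guide (sgControl, n = 3 libraries) and the other a guide against Ndufs4 (sgNdufs4, written sgNDUFS4 in the sample titles, n = 3 libraries), a gene for a subunit of mitochondrial complex I. The study profiled polyadenylated RNA to ask which transcripts accompany the immunogenicity that it ascribes to loss of Ndufs4. The labels do not say whether either group is a clone or a pool, nor whether replicates are separate cultures, so p-values reflect only how far these libraries vary, a variation that may be technical, and the genotype and other differences between the cell lines cannot be told apart.

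Reads counted in genes numbered between 20090607 and 25947374 per library, and levels are given in CPM, the reads of a gene scaled to a library total of 1000000. The targeted gene Ndufs4 was at 54.3, 55.0 and 52.4 CPM in sgControl and at 15.0, 15.98 and 16.8 CPM in sgNdufs4. Melanocyte lineage markers (Mitf, Sox10, Pmel, Dct, Tyrp1 and Mlana) were all present in every library and summed to between 15377 and 15893 CPM in sgControl and between 14505 and 15529 CPM in sgNdufs4. Opposite changes offset each other in these sums: Mitf and Pmel were higher in sgNdufs4, and Sox10, Dct, Tyrp1 and Mlana lower. The sgNdufs4 means ran from 0.747 of the sgControl mean for Mlana to 1.26 for Pmel. Of 10 markers of other cell types, Cd3e, Pecam1 and Cdh5 were at 0 in all libraries, and the 10 summed to between 31.2 and 36.6 CPM in sgControl and between 42.1 and 44.0 CPM in sgNdufs4. Pdgfrb accounted for most of that sum and was higher in sgNdufs4, at a mean of 19.0 CPM in sgControl and 30.2 CPM in sgNdufs4. Col1a1 (means 9.15 and 6.96 CPM), Lyz2 (3.49 and 4.34 CPM) and Adgre1 (1.21 and 1.26 CPM) also had reads in every library. The part of these genes in the results below was not tested. Tests used limma on log2(CPM + 0.5) over the 11063 genes whose mean reached 1 CPM, two-sided, with a Benjamini-Hochberg adjusted p under 0.05 taken as a call, and 52.0% of these genes were called. Log2 fold changes are on this scale, sgNdufs4 against sgControl, and understate the change of low genes.

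The promoters are shown because NRF2 is known to act through a short DNA element. RefSeq sequences on GRCm38.p6 were matched for 8 of the 10 genes, not for Hmox1 and Gclc, and the 250 bases upstream of each annotated start were searched on both strands. The element core TGACNNNGC occurred upstream of Gclm, Nfe2l2 and 1 of the annotated starts of Txnrd1, that is in 3 of 8 genes, against 11.5% of the 27025 genes with a promoter in the RefSeq set. The form TGANTCAGC, which also holds the AP-1 heptamer, occurred upstream of Osgin1 and Srxn1, that is in 2 of 8 genes, against 1.17% of these genes. Counted by start, TGACNNNGC was found at 3 of 10, against 10.2% of 32851. The genes were chosen as NRF2, its inhibitor and its established direct targets, so these shares describe that choice and test nothing. The stretches below are written 5′ to 3′ on the strand of the gene, with the matching letters in capitals. In Osgin1, Gclm and Txnrd1 the motif lies on the opposite strand, so that its reverse complement is in capitals.
Osgin1: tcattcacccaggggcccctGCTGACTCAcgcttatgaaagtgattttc
Srxn1: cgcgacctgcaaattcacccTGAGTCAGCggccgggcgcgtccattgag
Gclm: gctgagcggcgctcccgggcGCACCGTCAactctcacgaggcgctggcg
Txnrd1: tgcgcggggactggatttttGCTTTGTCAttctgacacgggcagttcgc
Nfe2l2: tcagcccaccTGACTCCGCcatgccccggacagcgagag
The 5 stretches lie at chr8:119437028-119437076 (plus strand), chr2:152105459-152105507 (plus), chr3:122245403-122245451 (plus), chr10:82859094-82859142 (plus) and chr2:75704875-75704913 (minus). The capitals begin 99, 45, 134, 92 and 240 bases before the start in turn. The Osgin1 and Txnrd1 stretches lie inside the annotated span of their gene, before a start downstream of its first one. The Osgin1, Srxn1, Gclm and Txnrd1 stretches overlap no exon in GENCODE M21, and the Nfe2l2 stretch overlaps an exon of the neighbouring transcript E030042O20Rik.

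Nqo1 is shown beside them because it differed most between the groups. The upstream 250 bases of Nqo1 held neither form of the element, nor the core of the aryl hydrocarbon receptor element, TNGCGTG, which 4.76% of the genes in the RefSeq set held. These letters are absent from this window only. The part of it from 150 to 11 bases before the start (chr8:107403216-107403355, minus strand, overlapping no exon) reads as follows.
Nqo1: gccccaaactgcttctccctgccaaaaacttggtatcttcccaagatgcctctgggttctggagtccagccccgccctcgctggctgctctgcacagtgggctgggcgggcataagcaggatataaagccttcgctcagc
None of the 8 matched genes held TNGCGTG in its upstream 250 bases. Slc7a11 and Keap1 held none of the 3 motifs either.

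Among the 10 genes, 7 were lower in every sgNdufs4 library than in any sgControl library (Nqo1, Osgin1, Srxn1, Gclm, Txnrd1, Keap1 and Nfe2l2), none was higher in that way, and Hmox1, Gclc and Slc7a11 overlapped. Of all genes tested, 22.2% were lower and 35.0% higher without overlap. All 10 passed the filter of a mean of 1 CPM over the 6 libraries. Nqo1 passed it through its sgControl mean of 21.6 CPM, since its sgNdufs4 mean was 0.705 CPM. Their log2 fold changes ran from -4.21 to 0.61 with a median of -0.39, where the median over all genes tested was 0.06. The plot of levels by library sets Nqo1 apart, since the next largest difference, that of Osgin1, was a log2 fold change of -1.01. In bulk RNA, fewer cells with a transcript and less of it per cell cannot be told apart.

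**Figure D1:**
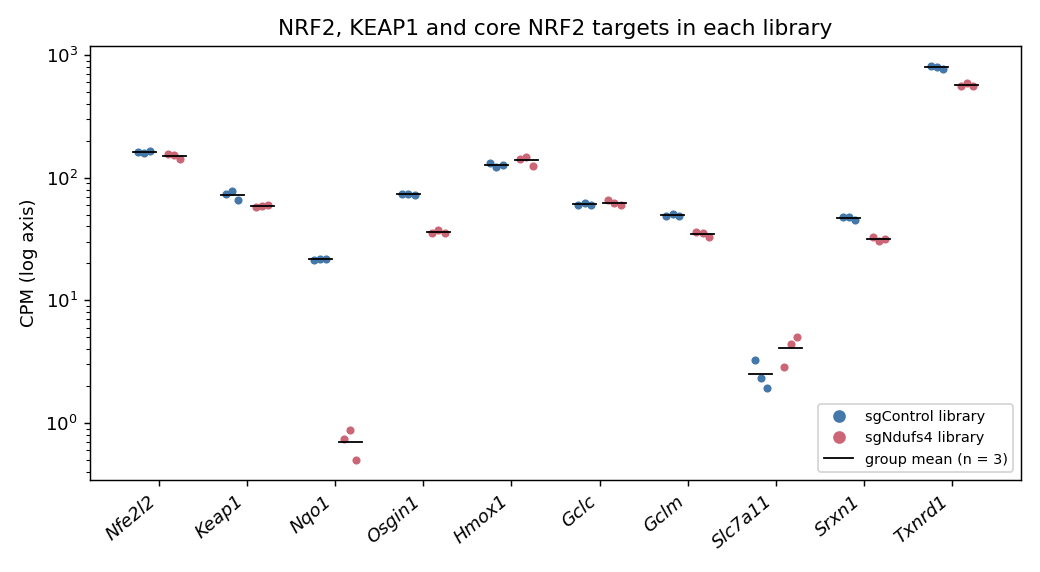
CPM of NRF2 (Nfe2l2), Keap1 and 8 NRF2 targets in each of 3 sgControl and 3 sgNdufs4 libraries, on a log axis, with black lines at the group means. Nqo1 sits between 21.2 and 21.9 CPM in sgControl and between 0.501 and 0.878 CPM in sgNdufs4, while no other gene shown differs between the group means by more than 2.03-fold.

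Nfe2l2 itself differed little, and Keap1 was lower by more. Nfe2l2 (ENSMUSG00000015839.6, chr2:75675513-75704641, minus strand) was at 161, 160.0 and 164 CPM in sgControl and at 155, 153 and 143 CPM in sgNdufs4. The groups did not overlap, with the sgNdufs4 mean at 0.929 of the sgControl mean and a log2 fold change of -0.11 (SE 0.0411). Keap1 (chr9:21229730-21239361, minus strand) was at 73.3, 78.2 and 65.5 CPM in sgControl and at 57.2, 58.5 and 60.0 CPM in sgNdufs4. The sgControl libraries were spread more widely than the sgNdufs4 ones, and the lowest sgControl library stood above the highest sgNdufs4 library. The sgNdufs4 mean of Keap1 was at 0.81 of the sgControl mean, with a log2 fold change of -0.30 (SE 0.0603). That of Keap1 was -0.36 under TMM scaling and -0.37 after centring. Keap1 overlaps an antisense transcript, and counts made without strand cannot separate them.

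Nqo1 encodes an NAD(P)H quinone oxidoreductase that reduces quinones to hydroquinones and is widely read as a marker of NRF2 activity. Nqo1 (ENSMUSG00000003849.8, chr8:107388225-107403206, minus strand) was at 21.2, 21.8 and 21.9 CPM in sgControl and at 0.736, 0.878 and 0.501 CPM in sgNdufs4. These levels rest on 425, 515 and 487 reads in sgControl and on 19, 21 and 13 reads in sgNdufs4. Every sgNdufs4 library stood far below every sgControl library, yet above the floor of 3 reads, which is between 0.116 and 0.125 CPM in the sgNdufs4 libraries.
The exact Poisson 95% intervals of the sgNdufs4 levels ran from 0.267 to 1.34 CPM over the 3 libraries, and those of the sgControl levels from 19.2 to 23.9 CPM. They cover counting error only. The sgNdufs4 mean of 0.705 ± 0.191 CPM (SD, n = 3) was 30.6-fold below the sgControl mean of 21.6 ± 0.386 CPM (SD, n = 3). The log2 of that ratio was -4.94, and the log2 fold change with the pseudocount was -4.21 (SE 0.174). In order of log2 fold change, Nqo1 was number 8 from the bottom of the 11063 genes tested. No other annotated gene overlaps Nqo1.

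Osgin1, an oxidative stress-induced growth inhibitor and an NRF2 target, lies on the same chromosome (chr8:119434124-119446256, plus strand). It was at 74.1, 73.5 and 71.7 CPM in sgControl and at 35.4, 37.4 and 35.3 CPM in sgNdufs4. The 2 groups were tight and well apart, and the sgNdufs4 mean was 2.03-fold lower. Hmox1, the haem oxygenase that opens the haem ring to biliverdin, is also on chromosome 8 (chr8:75093621-75100589, plus strand). It was at 131, 122 and 127 CPM in sgControl and at 142, 148 and 125 CPM in sgNdufs4. A pair of sgNdufs4 libraries stood above all sgControl libraries and the third stood among them, for a log2 fold change of 0.12 (SE 0.0516).

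The glutathione genes did not share one direction. Glutamate-cysteine ligase, the rate-limiting enzyme of glutathione synthesis, has a catalytic subunit encoded by Gclc and a modifier subunit encoded by Gclm. Gclc (chr9:77754535-77794485, plus strand) was at 59.5, 62.4 and 59.8 CPM in sgControl and at 65.2, 62.2 and 60.2 CPM in sgNdufs4. The groups overlapped, and its log2 fold change of 0.05 (SE 0.0555) became -0.01 under TMM scaling and -0.08 when each gene was centred on its 50 nearest tested genes. Gclm (chr3:122245557-122270732, plus strand) was at 48.9, 50.7 and 48.4 CPM in sgControl and at 35.8, 35.3 and 33.1 CPM in sgNdufs4. All sgNdufs4 libraries were lower, with a mean of 0.704 ± 0.0198 (SE) of the sgControl mean. Per kilobase of exon, the level of Gclm relative to Gclc was 0.492, 0.487 and 0.485 in sgControl and 0.329, 0.340 and 0.329 in sgNdufs4, so the 2 subunits' transcripts moved apart in every library. Gclm overlaps an antisense transcript and a processed pseudogene, which leaves its absolute level uncertain.

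Slc7a11, the cystine-glutamate antiporter subunit that supplies cysteine for glutathione, had the lowest CPM of the 10 in sgControl. It (chr3:49892526-50443614, minus strand) was at 3.29, 2.33 and 1.93 CPM in sgControl and at 2.87, 4.43 and 5.05 CPM in sgNdufs4. The highest sgControl library stood above the lowest sgNdufs4 library. Its replicates varied by 27.7% (coefficient of variation) in sgControl and 27.3% in sgNdufs4, where counting alone gives 13.5% and 9.82%. The log2 fold change was 0.61 (SE 0.223), and centring on the 50 nearest genes moved it to 0.23. Slc7a11 overlaps an antisense transcript, processed pseudogenes and another annotated transcript, which leaves its low level uncertain.

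Srxn1 and Txnrd1 were lower by about the same amount as Gclm. Srxn1, the sulfiredoxin that repairs over-oxidised peroxiredoxins (chr2:152105516-152111376, plus strand), was at 47.4, 47.9 and 45.6 CPM in sgControl and at 32.7, 30.6 and 31.7 CPM in sgNdufs4. Txnrd1, the cytosolic thioredoxin reductase (chr10:82833951-82897712, plus strand), was at 818, 801 and 766 CPM in sgControl and at 561, 585 and 554 CPM in sgNdufs4. Neither gene's groups overlapped. The sgNdufs4 means were 0.675 ± 0.0163 (SE) of the sgControl mean for Srxn1 and 0.713 ± 0.0182 (SE) for Txnrd1. Gclm, at 0.704, lay between them, while Osgin1 at 0.493 and Nqo1 at 0.0326 lay below them. Txnrd1 overlaps the protein-coding gene Eid3, which had a mean of 1.12 CPM.

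Levels of different genes can be compared only per length, and here only roughly. The length taken was that of all annotated exons of a gene joined, which can exceed that of the transcripts present. On the scale of CPM per kilobase of annotated exon, Txnrd1 was highest in sgControl at a mean of 112, followed by Hmox1 at 72.4, Nfe2l2 at 42.6 and Osgin1 at 27.3. Srxn1 at 16.6, Gclc at 16.1 and Keap1 at 15.4 followed with libraries that overlapped, and the lowest Keap1 library, at 13.97, stood within the range of Nqo1, whose mean was 13.9. Gclm at 7.84 and Slc7a11 at 0.181 came last.
In sgNdufs4 the libraries of Txnrd1, with a mean of 80.01, and of Hmox1, with a mean of 79.0, overlapped, and Nqo1 moved from just below Keap1 to 0.454, next to Slc7a11 at 0.296. The ranges of these last 2 genes, 0.323 to 0.566 and 0.206 to 0.363, overlapped.

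**Figure D2:**
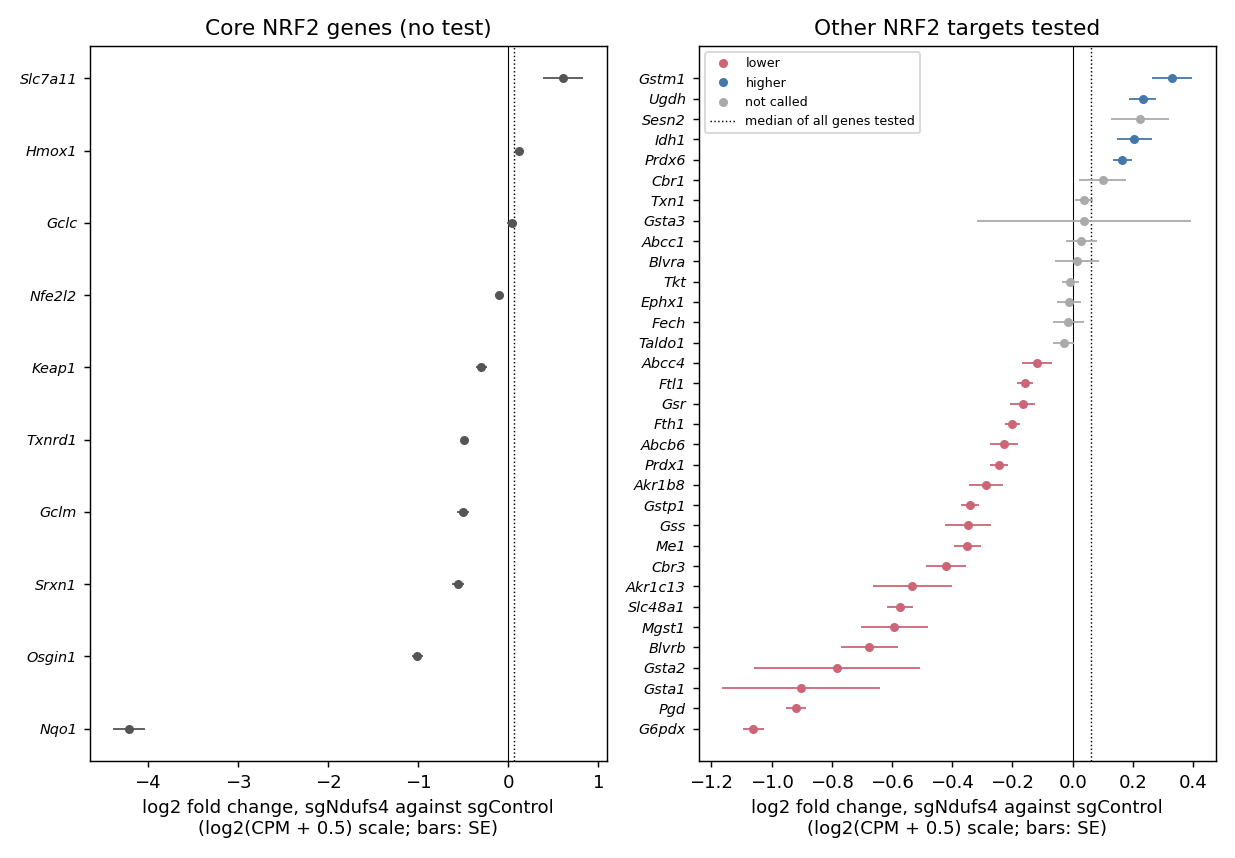
Log2 fold changes with their SE, sgNdufs4 against sgControl, for the 10 core NRF2 genes (left, no test) and the 33 other NRF2 targets tested (right, coloured by the limma call); the 2 axes have different ranges. Nqo1 at -4.21 lies far to the left of the other genes, and 19 of the 33 other targets are called lower against 4 called higher.

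Direct NRF2 targets outside the 10 were lower more often than higher. Of 43 listed, 33 could be tested, 5 were at 0 in every library, and 5 more were below 1 CPM. With limma 19 fell and 4 rose, where 20.3% of all genes tested fell and 31.8% rose, and 10 did not pass. Their median log2 fold change was -0.17 against 0.06 for all genes. That antioxidant genes leaned lower in these libraries was known when the list was drawn up, so the count is not independent evidence of its direction.

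Among the NADPH-producing dehydrogenases, 3 fell and Idh1 rose, as given below. G6pdx and Pgd, of the pentose phosphate pathway, fell by 1.06 and 0.92 on the log2 scale (SE 0.0350 and 0.0319, in limma, adjusted p = 1.1e-18 and 3.2e-18), and Me1, the cytosolic malic enzyme, fell by 0.35 (SE 0.0451, adjusted p = 3.9e-07). G6pdx lies on chromosome X among genes that were also lower, and the log2 fold change of G6pdx was -0.20 after centring on its 50 nearest genes, where it still passed. Taldo1 and Tkt, enzymes of the non-oxidative branch, had log2 fold changes of -0.03 and -0.01 as deposited (in limma, adjusted p = 0.50 and 0.83). Taldo1 passed at -0.09 under TMM scaling, and Tkt at -0.13 after centring.

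Among genes of haem and iron handling, some fell and others did not pass. Slc48a1, a haem transporter, fell from 151 ± 1.69 to 101 ± 2.31 CPM (SD, n = 3 each, in limma, adjusted p = 1.8e-11), and Blvrb, a biliverdin reductase, from 46.2 ± 4.81 to 29.0 ± 5.52 CPM (adjusted p = 1.7e-06). The ferritin chains Fth1 and Ftl1 fell by 0.20 and 0.16 on the log2 scale (in limma, adjusted p = 2.2e-07 and 1.6e-05), and have many processed copies in the genome that can share their reads. Blvra, another biliverdin reductase, and Fech, which inserts iron into haem, had log2 fold changes of 0.01 and -0.01 and did not pass (in limma, adjusted p = 0.88 and 0.83); both were named after their values were seen. Hmox1 overlapped between the groups, as given above.

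Among detoxifying and peroxide-handling enzymes, the carbonyl reductase Cbr3 fell by 0.42, the glutathione transferase Gstp1 by 0.34 and the peroxiredoxin Prdx1 by 0.24 on the log2 scale (in limma, adjusted p = 6.9e-06, 3.4e-10 and 2.4e-07). Gstp1 has a close paralog next to it. Txn1, the substrate of Txnrd1, was at 458 ± 9.84 and 470.1 ± 4.74 CPM (SD, n = 3 each, in limma, adjusted p = 0.29), and its log2 fold change of 0.04 turned to -0.02 under TMM scaling. Ephx1, an epoxide hydrolase, had a log2 fold change of -0.01 (in limma, adjusted p = 0.81), which turned to 0.01 after centring on the 50 nearest genes. Those that rose were Gstm1, Prdx6, Idh1 and Ugdh, with log2 fold changes of 0.33, 0.16, 0.20 and 0.23; these 4 were named after their values were seen, to complete the count.

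Of 27 listed symbols for partners, competitors, degradation machinery and coactivators of NRF2, 26 were matched in the deposited table (Skp1 is there as Skp1a) and 24 were tested. With limma 4 rose, 6 fell and 14 did not pass. That is 41.7% called, against 52.0% of all genes tested, with 25% lower against 20.3% and 16.7% higher against 31.8%. TMM scaling gave 4 higher and 10 lower, where it called 2744 of all 11063 genes higher and 2862 lower. Sqstm1 encodes p62, which binds KEAP1 and is itself an NRF2 target. It was at 3248, 3189 and 3188 CPM in sgControl and at 2165, 2165 and 2096 CPM in sgNdufs4. It was lower in every sgNdufs4 library and fell by 0.58 on the log2 scale (SE 0.0234, in limma, adjusted p = 7.9e-17).
The KEAP1-binding peptidase Dpp3 fell by 0.30 (in limma, adjusted p = 1.7e-05). Btrc, the F-box protein of the KEAP1-independent route of NRF2 degradation, fell by 0.38, and Skp1a, a subunit of the same ligase, by 0.20 (adjusted p = 6.3e-06 and 3.4e-05). Syvn1, an endoplasmic reticulum ligase that also targets NRF2, rose by 0.36, and Nfe2l1, the related factor NRF1, rose by 0.23 (adjusted p = 2.2e-05 and 6.3e-05). The others that rose were Mafg, a small MAF, at 0.40 and Palb2 at 0.39. The others that fell were Ep300 at -0.19 and Cul1 at -0.09. Mafg, Palb2, Ep300 and Cul1 were named after their values were seen, to complete the count.
Cul3, the cullin of the KEAP1 ligase, had a log2 fold change of -0.10 (in limma, adjusted p = 0.063) and passed at -0.16 under TMM scaling. Cand1, which exchanges cullin adaptors, had one of -0.05 (in limma, adjusted p = 0.26) and passed at -0.11 under TMM scaling. Gsk3a, a kinase that marks NRF2 for the Btrc route, had one of 0.03 (in limma, adjusted p = 0.68), which turned to -0.03 under TMM scaling.

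**Figure D3:**
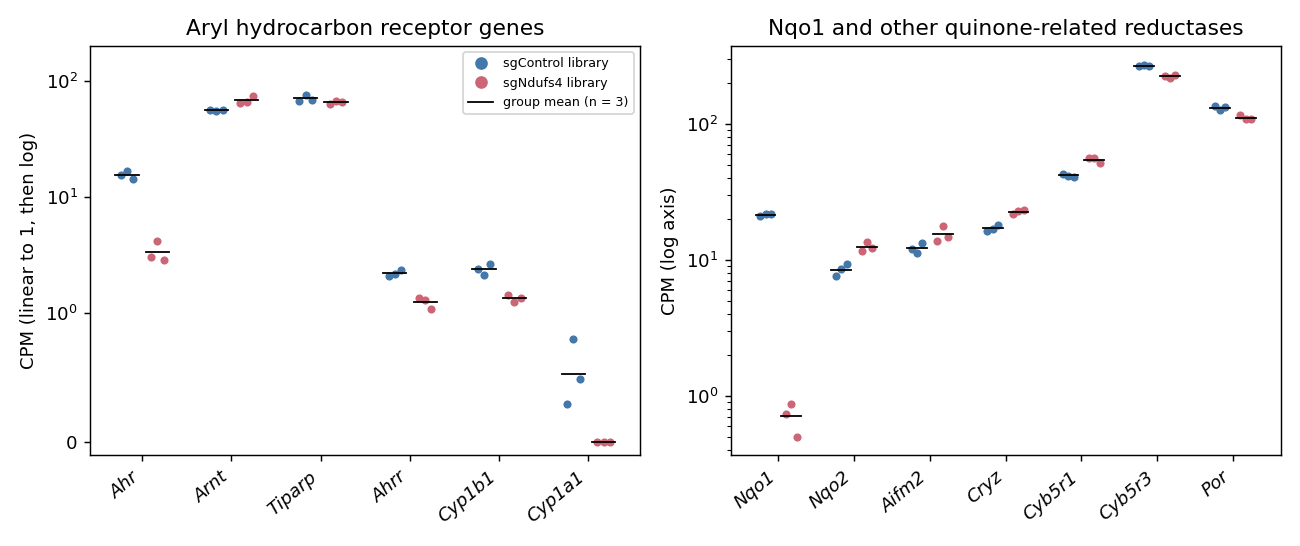
CPM in each library, with black lines at the means of the 3 libraries of a group, for genes of the aryl hydrocarbon receptor (left; linear axis up to 1 CPM, log above) and for Nqo1 with other reductases (right; log axis). Ahr falls from a mean of 15.5 to 3.37 CPM, and among the 6 reductases beside Nqo1 the widest difference between the means is that of Nqo2, which is 1.47-fold higher.

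The other reductases examined beside Nqo1 changed far less than it did. Of 6, all tested, 4 rose and 2 fell, where 31.8% of all genes tested rose and 20.3% fell. TMM scaling gave 3 higher and 2 lower, with 2744 of all 11063 genes called higher and 2862 lower. Centring on the 50 nearest genes gave 2 higher and 1 lower, with 2337 of all 11050 genes called higher and 2487 lower. Nqo2, the paralog of Nqo1 that uses dihydronicotinamide riboside rather than NAD(P)H, was at 7.62, 8.62 and 9.29 CPM in sgControl and at 11.7, 13.7 and 12.2 CPM in sgNdufs4. It was higher in every sgNdufs4 library, a log2 fold change of 0.54 (SE 0.125, in limma, adjusted p = 0.00085). Nqo2 lies on chromosome 13 among genes that were also higher, and after centring on its 50 nearest genes it was at 0.21 and no longer passed (adjusted p = 0.21).
Per kilobase of exon, the level of Nqo2 relative to Nqo1 was 0.138, 0.152 and 0.163 in sgControl and 6.13, 5.98 and 9.37 in sgNdufs4. The order of the 2 paralogs was therefore reversed in the sgNdufs4 libraries, through the low level of Nqo1 more than the higher level of Nqo2.

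Cryz, the quinone reductase zeta-crystallin, and Cyb5r1, a cytochrome b5 reductase, rose by 0.40 and 0.38 on the log2 scale (in limma, adjusted p = 0.00066 and 1.5e-05). Aifm2, the coenzyme Q reductase FSP1, rose by 0.32 (SE 0.117, in limma, adjusted p = 0.024). That call was lost without a filter on low values, with edgeR and with DESeq2, under TMM scaling at 0.26 (adjusted p = 0.063), after centring at 0.06, and without sgControl replicate 1, sgControl replicate 2 or sgNdufs4 replicate 2 (adjusted p = 0.059, 0.099 and 0.18). Cyb5r3 and Por, electron donors that reduce quinones by 1 electron at a time, fell by 0.26 and 0.25 (adjusted p = 5.7e-07 and 4.3e-05), and Cyb5r3 was at -0.06 after centring and did not pass (adjusted p = 0.25).

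Nqo1 is also a known target of the aryl hydrocarbon receptor, a ligand-activated factor that pairs with ARNT and induces cytochrome P450 genes of family 1. The receptor gene Ahr (chr12:35497974-35535038) was at 15.5, 16.8 and 14.3 CPM in sgControl and at 3.02, 4.22 and 2.85 CPM in sgNdufs4. All sgNdufs4 libraries were far below the sgControl ones, and the mean was 4.61-fold lower. Ahr fell by 2.06 on the log2 scale (SE 0.153, in limma, adjusted p = 1.9e-11). The call held in each of the 15 alternative fits, over which the log2 fold change of Ahr ran from -2.27 to -1.93.
Its targets Ahrr, a repressor of the receptor, and Cyp1b1 were at 2.21 ± 0.151 and 2.38 ± 0.267 CPM in sgControl and at 1.24 ± 0.146 and 1.35 ± 0.0893 CPM in sgNdufs4 (SD, n = 3 each). Both fell by 0.64 on the log2 scale (in limma, adjusted p = 0.030 and 0.025). Leaving out 1 library at a time lost each call in 4 of 6 fits: for Ahrr without sgControl replicate 2 or 3 or sgNdufs4 replicate 2 or 3, and for Cyp1b1 without sgControl replicate 1 or 3 or sgNdufs4 replicate 2 or 3, with adjusted p-values between 0.053 and 0.091.

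Cyp1a1, the best known receptor target, lay below the filter and is named because of its values, after they were seen. It was at 0.299, 0.803 and 0.494 CPM in sgControl, or 6, 19 and 11 reads. All 3 sgNdufs4 libraries were without a read of it, so that, with 3 reads per library as the floor, Cyp1a1 was at least 4.47-fold lower. Tiparp, another receptor target, was at 70.7 ± 4.85 and 65.4 ± 2.21 CPM (SD, n = 3 each, in limma, adjusted p = 0.11) and passed at -0.17 under TMM scaling. Arnt rose by 0.28 (in limma, adjusted p = 0.00021), and was at 0.01 after centring on its neighbours on chromosome 3, where it did not pass. Cyp1a2 and Aldh3a1 were at 0 in every library. How far Ahr has a part in the level of Nqo1 was not tested.

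Neighbouring genes on chromosome 8 did not share the low level of Nqo1. The nearest tested genes before it, Cyb5b and Nfat5, had log2 fold changes of -0.16 and 0.54 (in limma, adjusted p = 0.0015 and 5.5e-06). Those after it, Nob1 and Wwp2, had log2 fold changes of -0.07 and -0.23 (in limma, adjusted p = 0.16 and 0.00013), and Nob1 passed at -0.13 under TMM scaling. Over the 10 nearest tested genes on each side the median was 0.11, the lowest value was -0.28 for Vps4a, and 4 of the 20 were called lower and 5 higher, where 20.3% of all genes tested were lower and 31.8% higher. Centring Nqo1 on its 50 nearest genes gave -4.31.

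Around Osgin1, the 20 nearest tested genes had a median of -0.00, and Wfdc1 among them, at -1.18, was lower than Osgin1 itself. The adjoining genes Hsbp1, Mlycd, Mbtps1 and Hsdl1 were at 0.07, -0.16, 0.18 and -0.47, of which Mbtps1 rose and Hsdl1 fell (in limma, adjusted p = 0.33, 0.50, 0.0012 and 0.0072 in turn). Without sgNdufs4 replicate 1 the call of Hsdl1 was lost (adjusted p = 0.064). Of the 10 genes, Slc7a11 had the 20 neighbours with the highest median, at 0.40, of which 13 were called higher and 1 lower. The neighbours of Gclc and Gclm had medians of 0.25 and 0.17, on the opposite side of 0 from the change of Gclm. Around the other 7 genes, Nqo1 and Osgin1 included, the neighbours' median lay between -0.04 and 0.14.

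**Figure D4:**
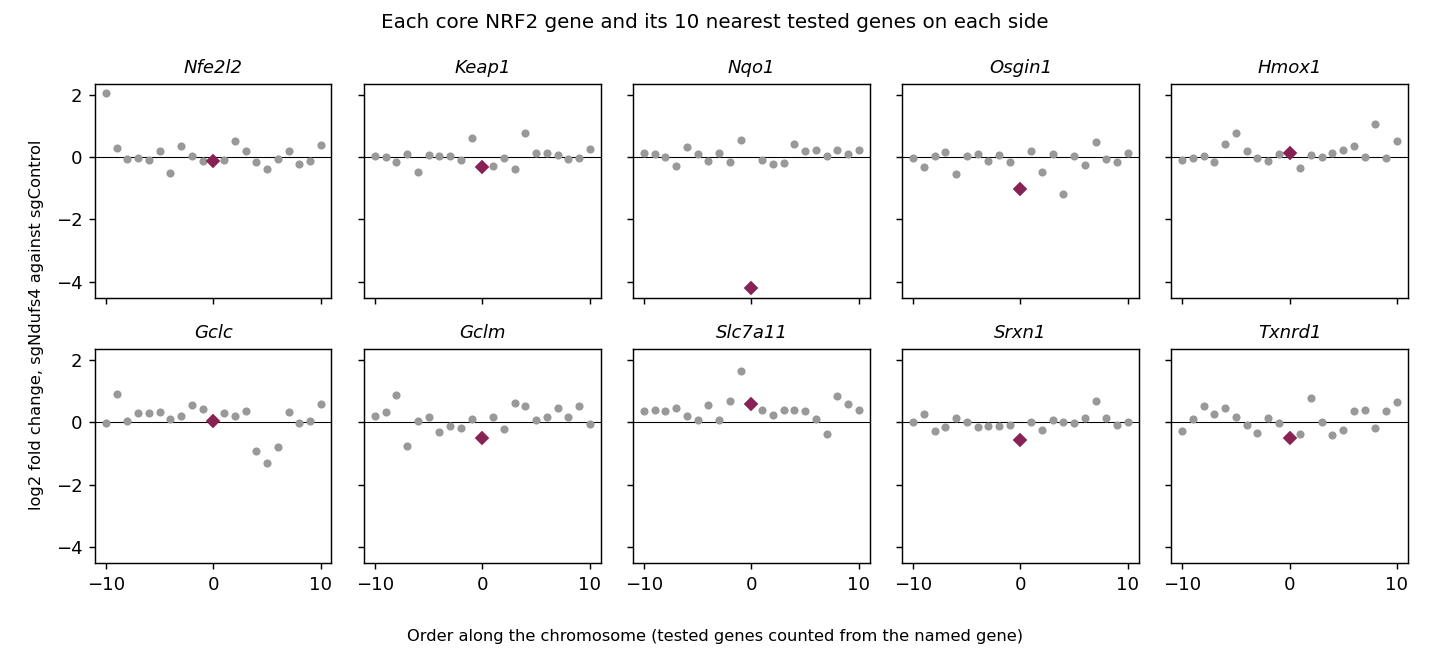
Log2 fold change, sgNdufs4 against sgControl, of each of the 10 genes (diamond) and of the 10 nearest tested genes on each side of it (grey points), by order along the chromosome. Nqo1 at -4.21 stands alone among neighbours between -0.28 and 0.54, while Slc7a11 at 0.61 lies among neighbours with a median of 0.40.

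The genes whose profile over the 6 libraries was most like that of Nqo1 were sought by Euclidean distance on log2(CPM + 0.5), centred on the sgControl mean. The nearest 5 were Ptprd, Gpr37, Pycard, Xlr and Sdk1, at distances of 0.425, 0.647, 0.718, 0.789 and 0.884. Ptprd encodes a receptor tyrosine phosphatase, Pycard the inflammasome adaptor ASC and Sdk1 a cell adhesion molecule. Gpr37 was at 12.6 ± 1.71 CPM in sgControl and 0.302 ± 0.0725 CPM in sgNdufs4 (SD, n = 3 each). The 3 sgNdufs4 libraries were without reads of Ptprd, Pycard, Xlr and Sdk1, which with 3 reads per library as the floor were at least 80.2-, 58.3-, 98.7- and 103.2-fold lower. Nqo1, unlike these 4, kept reads in every sgNdufs4 library. For these 4 the distance to Nqo1 was set largely by the pseudocount and their sgControl levels, so it does not show a like fold. Xlr has near-identical copies, so its reads may be split among them.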

How the data were processed

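RNA sequencing of 6 B16-BL6 libraries was analysed from 1 deposited table of CPM, which the authors scaled to the reads counted in genes of each library. The submitters' processing notes name HISAT2 and GRCm38; which tool and annotation gave the counts is not stated in the sources used here. Sequencing did not keep the strand, per the labels' protocols. Low values were whole multiples of 1 read: between 99.99% and 100% of values above 0 were whole within 0.01. On these recovered reads edgeR called 2723 genes higher and 2860 lower.

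The main test was limma 3.58.1 (R 4.3.3) with a mean-variance trend. It was also run on simulated counts in which far fewer genes changed than were called here, so that run does not vouch for these calls. Alternatives were other pseudocounts, filters and TMM scaling, omission of each library in turn, the replicate number as a block, edgeR 4.0.16, DESeq2 1.42.0, and centring each gene on its 50 nearest tested genes.

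The genes and lists were chosen with earlier results of these data known. Named were the 10 genes, Ndufs4, the 10 other targets and 6 regulators with the smallest p among called genes, the 4 and 3 most abundant not called, all tested reductase and receptor genes, 5 genes most like Nqo1 (no predicted gene models), and adjoining genes of Nqo1 and Osgin1; the rule also named the adjoining genes of the other 8, which were reduced to medians after the data were seen, for length. Positions and exon lengths came from GENCODE M21 on GRCm38 and promoters from RefSeq, matched by symbol.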

Additional observations from a re-analysis of the deposited data

How the results depend on the processing

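Over 15 alternative fits, the counts called among all genes, other NRF2 targets and NRF2 regulators stayed within 1.5 times the main count except in these cases. The number of NRF2 regulators called lower was 6, and 10 with TMM scaling, with edgeR and with DESeq2. In those fits 2862, 2860 and 2767 of all genes were lower, against 2241 in the main fit. The number of all genes called higher was 3514, and 2337 with regional centring. TMM scaling gave 2744 higher and 2862 lower genes, so that 48.9% of calls were higher against 61.1% as deposited, and moved the median of all genes from 0.06 to 0.00.

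Other NRF2 targets called lower numbered between 16 and 20 in every fit, and those called higher between 3 and 5. The log2 fold change of Nqo1 ran from -5.01 (DESeq2) to -3.73 (pseudocount 1). Of 5 receptor genes tested, 3 were called lower, where 20.3% of all genes tested were. The alternatives gave between 1 and 4, with only 3 tested under the filter at a mean of 5 CPM and 6 tested without a filter. Directions that turned belonged to genes that had not passed. The log2 fold change of Txn1 was -0.0209, -0.0214 and -0.0218 with TMM, edgeR and DESeq2 and -0.0623 with centring. The log2 fold change of Gsk3a was -0.0342, -0.0358 and -0.0362 with TMM, edgeR and DESeq2, and ran from -0.0277 (without sgControl replicate 3) to 0.0623 with 1 library left out. The log2 fold change of Ephx1 was 0.00992 with centring and ran from -0.0344 to 0.0292 (without sgControl replicate 3) with 1 library left out, and the log2 fold change of Tkt from -0.0283 to 0.00373 (without sgNdufs4 replicate 3).

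With the replicate number as a block, 3632 genes were called higher and 2309 lower, and 8 NRF2 regulators were lower. Whether the numbers pair the libraries is not clear. Same-numbered libraries' deviations correlated weakly, at 0.0559, 0.0121 and 0.0972, and those of unlike numbers between -0.087 and 0.0353. Replicates 1 and 3 of sgNdufs4 correlated best with the sgControl library of the same number, but sgNdufs4 replicate 2 with sgControl replicate 1 (0.0353). The cause of these differences was not tested. Nqo1 rested on 13 to 21 reads in sgNdufs4, which limits its fold more than its direction.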
